A study of Mus musculus with 3 samples.

Results

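Genes whose promoter carried a Par-4 peak were examined in chromatin of 3T3-L1 cells. The members were chosen by the measured peak calls: every peak that the HOMER annotation of the deposited lists placed in the class promoter-TSS was taken, except those on chromosome 10, mitochondrial DNA and unplaced contigs, and the gene named beside it was counted once. In that annotation the class is usually given from 1000 bp before to 100 bp after a transcription start site (TSS). This gave 47 member genes among the 195 nearest genes of the 3 lists, carried by 50 of 373 peaks. Of the members, 43 were protein-coding and 4 were noncoding RNAs. The peak calls and their annotation class made the choice, so counts of peaks and distances to the TSS are given below as descriptions.

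Par-4, encoded by Pawr, is a pro-apoptotic leucine zipper protein that also enters the nucleus, where it is known to co-repress or co-activate genes together with transcription factors such as WT1. Promoters of widely expressed genes are often rich in CpG dinucleotides, and many of them direct transcription to both sides, so that the starts of a pair of genes lie back to back. A ChIP peak at such a site marks DNA enriched by the antibody and does not by itself show that the nearest gene is regulated.

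The 3T3-L1 line is a mouse fibroblast line committed to the fat cell lineage. The cells were untreated and undifferentiated, and chromatin was precipitated with an antibody to the N-terminal part of Par-4 in 3 samples labelled as replicates of 1 condition. There was no second genotype or treatment, no input or other control library was used here, and the study says of its experiments in general that they were repeated independently, without saying how that applies to the ChIP samples. The deposited lists hold peaks with a score and no read counts, so the depth is unknown, and no gene expression was measured in these samples. The header of the list of replicate 2 named a library numbered 3, and that of replicate 3 named the undetermined reads of the sequencing run, which are reads that no sample index claimed. The main counts that include peaks of replicate 3 are therefore also given without it: the members then numbered 46, with 48 peaks. Other counts, such as those of motifs and chromosomes, are given for all 3 lists only.

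The list of replicate 1 supplied 41 of the member peaks among its 213 peaks (19.2%, exact binomial 95% confidence interval 14.2 to 25.2%). The list of replicate 2 supplied 7 of 55 (12.7%, interval 5.27 to 24.5%), and that of replicate 3 supplied 2 of 105 (1.90%, interval 0.232 to 6.71%). Such intervals cover counting error only. Denr was the only gene with a promoter peak in all 3 lists, and Rbm39 was the only other gene with one in more than 1 list, namely those of replicates 1 and 2. The remaining 45 members had a promoter peak in 1 list, 39 of them in replicate 1, 5 in replicate 2 (Arf3, Wdr77, Rc3h2, Ankfy1 and Zfp935) and 1 in replicate 3 (Wdr27). No member had a peak of another class in any list. Without replicate 1 the members numbered 8, and without replicate 1 or replicate 2 only 1 gene was called in at least 2 lists. Of the 41 member peaks of replicate 1, only those of Denr and Rbm39 were overlapped by a peak of any class in another list.

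The DNA under the peaks is shown for 15 members, 13 in which a CG-rich palindrome lay under the peak and a pair in which it did not. Sequences are from the RefSeq promoter windows of GRCm38.p6, the assembly of mm10, which span 250 bp before to 50 bp after an annotated start. Each is read in the direction of the member gene, covers the part of its peak that lies in a window, and stops at most 30 bases past that gene's start. Capitals mark the letters TCGCGA, which read the same on both strands. For Denr the 101 bp shared by the peaks of all 3 lists are shown, and for Rbm39 the stretch belongs to the peak of replicate 2.
Denr (chr5:123907137-123907237, plus strand): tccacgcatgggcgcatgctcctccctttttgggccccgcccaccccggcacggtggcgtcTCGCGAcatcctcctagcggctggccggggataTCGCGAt
Rbm39 (chr2:156180209-156180357, minus strand): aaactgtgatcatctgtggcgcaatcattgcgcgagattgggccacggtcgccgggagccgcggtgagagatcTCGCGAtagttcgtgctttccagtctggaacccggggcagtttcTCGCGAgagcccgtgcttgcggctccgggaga
Wdr27 (chr17:14943095-14943199, minus strand): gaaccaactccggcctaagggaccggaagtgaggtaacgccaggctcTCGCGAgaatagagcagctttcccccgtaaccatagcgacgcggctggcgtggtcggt
Wdr77 (chr3:105959241-105959383, plus strand): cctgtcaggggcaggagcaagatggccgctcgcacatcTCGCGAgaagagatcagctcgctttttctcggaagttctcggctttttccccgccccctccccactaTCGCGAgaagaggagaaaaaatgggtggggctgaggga
Arf3 (chr15:98763221-98763350, minus strand): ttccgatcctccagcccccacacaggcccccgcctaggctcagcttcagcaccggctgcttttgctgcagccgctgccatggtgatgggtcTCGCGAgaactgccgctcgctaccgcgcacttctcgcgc
Ankfy1 (chr11:72689956-72690031, plus strand): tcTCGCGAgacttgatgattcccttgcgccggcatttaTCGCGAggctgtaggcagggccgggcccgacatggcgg
Ssmem1 (chr6:30509765-30509878, plus strand): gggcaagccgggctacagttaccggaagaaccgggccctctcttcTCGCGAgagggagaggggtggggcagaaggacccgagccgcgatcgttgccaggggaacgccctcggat
Mapk14 (chr17:28691240-28691371, plus strand): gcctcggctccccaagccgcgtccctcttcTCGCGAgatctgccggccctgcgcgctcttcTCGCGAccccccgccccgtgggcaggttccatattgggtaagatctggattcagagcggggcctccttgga
Mdh2 (chr5:135778537-135778678, plus strand): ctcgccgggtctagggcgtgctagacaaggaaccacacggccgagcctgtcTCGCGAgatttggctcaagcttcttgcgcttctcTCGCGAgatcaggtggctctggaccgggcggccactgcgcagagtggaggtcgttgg
Ireb2 (chr9:54863657-54863784, plus strand): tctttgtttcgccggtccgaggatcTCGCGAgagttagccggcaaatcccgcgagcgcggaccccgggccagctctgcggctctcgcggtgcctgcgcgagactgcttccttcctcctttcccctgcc
Sbno1 (chr5:124425928-124426047, minus strand): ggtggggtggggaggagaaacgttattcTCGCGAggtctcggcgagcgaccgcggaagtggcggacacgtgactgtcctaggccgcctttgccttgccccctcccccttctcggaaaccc
Wdr44 (chrX:23692960-23693080, plus strand): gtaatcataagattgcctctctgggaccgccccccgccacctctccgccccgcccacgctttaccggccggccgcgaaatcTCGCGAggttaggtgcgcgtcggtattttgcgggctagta
Cdk12 (chr11:98202581-98202792, plus strand): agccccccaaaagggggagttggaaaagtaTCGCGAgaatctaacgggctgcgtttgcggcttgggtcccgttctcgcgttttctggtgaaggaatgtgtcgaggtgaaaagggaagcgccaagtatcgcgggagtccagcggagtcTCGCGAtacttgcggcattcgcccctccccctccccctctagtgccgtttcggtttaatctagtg

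The following stretches, from members whose whole peak had sequence, held no copy of the palindrome and are shown for contrast.
Pcyt1a (chr16:32430750-32430879, plus strand): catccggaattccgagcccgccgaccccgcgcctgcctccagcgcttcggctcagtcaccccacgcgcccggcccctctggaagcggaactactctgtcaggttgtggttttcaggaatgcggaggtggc
Cenpu (chr8:46551824-46551953, plus strand): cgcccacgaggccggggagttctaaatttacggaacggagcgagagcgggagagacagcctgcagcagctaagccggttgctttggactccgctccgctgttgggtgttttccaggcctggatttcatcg

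Denr encodes the density-regulated protein, which works with MCTS1 in the re-initiation of translation. Its promoter peak lay at chr5:123907120-123907328 in replicate 1, with a score of 102 that ranked 119th of 213. In replicate 2 it lay at chr5:123907137-123907304 with a score of 129, 17th of 55. In replicate 3 it lay at chr5:123907108-123907237 with a score of 92, 69th of 105. Relative to the start the peak centres lay at -51, -55 and -103 bp, where negative is upstream, so that the peaks of the 3 lists fell on the same short stretch just upstream of the gene. Without the list of replicate 3, the Denr promoter was still called in 2 lists. Given the headers described above, it is not known whether the 3 lists come from independent libraries.

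Rbm39 encodes an RNA-binding protein that takes part in pre-mRNA splicing and in transcription. Its peak lay at chr2:156180133-156180412 in replicate 1, with a score of 101 that ranked 126th of 213, and at chr2:156180196-156180357 in replicate 2, with a score of 134 that ranked 15th of 55. The narrower peak of replicate 2 fell wholly within that of replicate 1, and the shared 162 bp were close to the start, with the centres of the 2 peaks at -34 and -38 bp. The Rbm39 peak had the best rank of the member peaks in replicate 2. No Rbm39 peak was called in the list of replicate 3.

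The peak score comes from MACS2, which reports significance on a scale of 10 times −log10 (whether of p or q is not stated), and scores of different lists were not compared. In replicate 1 the member peaks scored 61 to 174 with a median of 80, against a median of 127.5 for the 172 other peaks of that list. In replicate 2 they scored 53 to 134 with a median of 93, against 105 for the 48 other peaks, and in replicate 3 the pair of member peaks scored 87 and 92, against a median of 114 for the 103 other peaks. Expressed as a percentile of the score within its own list, the medians were 25.8%, 39.1% and 31.7% for the member peaks, against 59.2%, 52.7% and 51.4% for the other peaks. The member peaks thus lay mostly in the lower part of each list, and 5, 2 and 0 of them reached the list's own median score.

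Of the other peaks, 114 of 172 in replicate 1, 20 of 48 in replicate 2 and 70 of 103 in replicate 3 lay outside satellite, rRNA, mitochondrial and unplaced DNA. Among peaks outside these classes the median percentile of the member peaks was 34.8% in replicate 1, 57.4% in replicate 2 and 44.8% in replicate 3. The other peaks outside these classes had a median score of 103.5, 87 and 98, so the member peaks of replicate 2, with their median of 93, then scored above the other peaks, while those of replicates 1 and 3 still scored below.

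**Figure D1:**
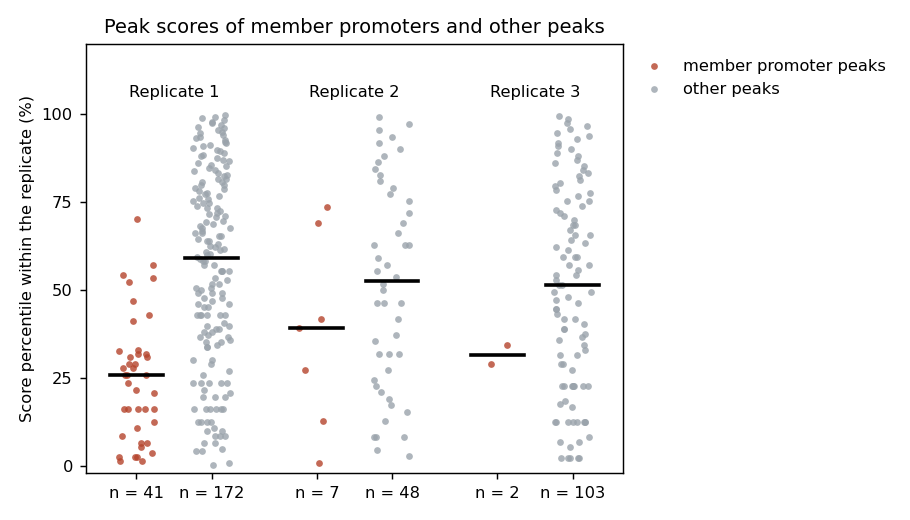
Percentile of the peak score within its own replicate (%), for member promoter peaks and the other peaks of each list; points are peaks, bars are medians and n counts peaks. The member medians of 25.8%, 39.1% and 31.7% lie below those of the other peaks, and the highest member point of replicate 1 is Mir466d.

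Most of the member peaks were also narrow. In every list the narrowest peak was 130 bp wide, and 30 of 50 member peaks had that width (60.0%, exact interval 45.2 to 73.6%), against 74 of the 323 other peaks (22.9%, interval 18.4 to 27.9%) and 64 of the 204 other peaks outside repeats and unplaced DNA (31.4%). Without replicate 3, 28 of 48 member peaks had that width. The widest member peak, that of Rbm39 in replicate 1, spanned 280 bp. Width and score were written by the same peak caller from the same reads and are not separate lines of evidence.

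By the position of their centre, 32 of the 50 member peaks lay upstream of the TSS and 18 lay at or downstream of it. The median position was -34 bp and the median distance in either direction was 74 bp, with 30 peaks within 100 bp and 18 within 50 bp. Without replicate 3, 30 of 48 peaks lay upstream and 29 within 100 bp. The peak of Wdr44, a gene for an effector of the recycling GTPase RAB11, was centred on the start itself, and that of Mir207 was centred at -3 bp from its annotated start. At the other end, 5 peaks lay over 500 bp upstream, those of Elobl (-989 bp), Ddx6 (-652 bp), Cdk12 (-622 bp), Larp1 (-616 bp) and 9930021J03Rik (-563 bp). For 5 peaks the centre lay over 100 bp downstream of the start of the named gene: Marchf5 (342 bp), Fkbp15 (273 bp), Pigx (185 bp), Tdp2 (131 bp) and Srsf11 (123 bp). The annotated transcript of all 5 belonged to a neighbouring gene.

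Just outside the rule, 19 peaks on the same chromosomes lay within 1000 bp of a TSS but were classed as intron, exon or UTR, 16 of them in replicate 1, 1 in replicate 2 and 2 in replicate 3. The nearest were those of Sfi1 (134 bp downstream, score 96), H3f3b (141 bp, score 74) and Lsm8 (155 bp, score 102), all in replicate 1. All 19 lay downstream, where the promoter class ends sooner. Outside the rule by chromosome were 4 promoter peaks: those of Pisd-ps3 on an unplaced contig in replicates 1 and 2, that of Slc35e3 in replicate 1 and that of Mdm2 in replicate 2.

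**Figure D2:**
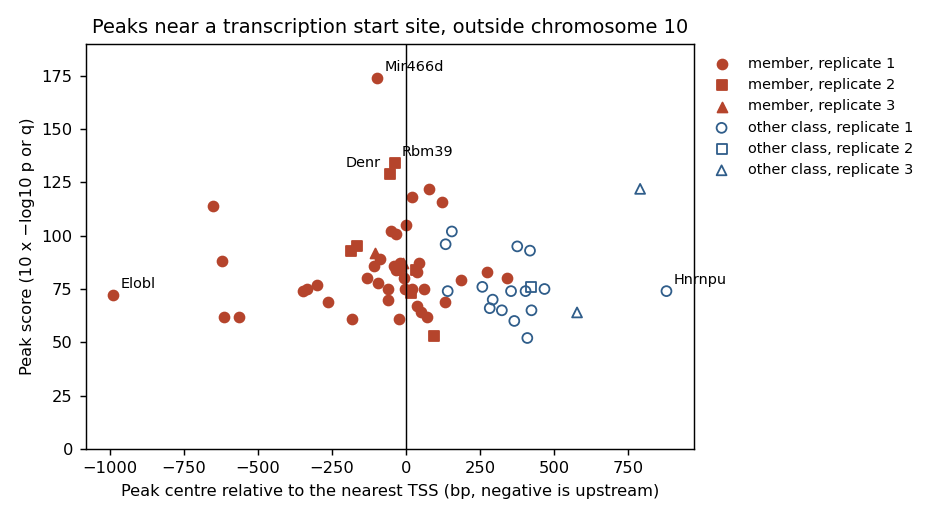
Peak score against the distance of the peak centre from the nearest TSS (bp, negative is upstream), for the 50 member peaks (filled) and the 19 near peaks of another class (open); the shape gives the replicate, and scores are comparable only within a replicate. Of the member peaks 30 lie within 100 bp of the start, and all open symbols lie downstream.

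The members were grouped by what their products are known to do, and the grouping was made after their names were known. The 6 genes of translation and mRNA fate had scores of 62 to 118 in replicate 1. Besides Denr, this group held Mak16, known from yeast for its role in making the large ribosomal subunit, whose peak at chr8:31168626-31168783 scored 118 in replicate 1 (rank 98, 20 bp downstream). It held Ddx6, an RNA helicase of processing bodies, with a peak at chr9:44604170-44604311 that scored 114 (rank 102). Rc3h2, which encodes roquin-2, an RNA-binding protein that promotes mRNA decay, had a peak only in replicate 2, at chr2:37422805-37422934, with a score of 84 (rank 40, 34 bp downstream). Ireb2, the iron regulatory protein that binds iron-responsive elements in mRNA, scored 84, and Larp1, which binds mRNAs with a terminal oligopyrimidine tract, scored 62, near the bottom of replicate 1.

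Of the members, 11 were placed under splicing and transcription, with scores of 61 to 116 for the 9 peaks of replicate 1 and 53 to 134 for the 3 of replicate 2. Srsf11, an SR-family splicing factor, had a peak at chr3:158036405-158036628 that scored 116 in replicate 1 (rank 99), and Sf3b2, a subunit of the SF3b complex of the U2 snRNP, scored 80. Wdr77, which encodes the partner of the arginine methyltransferase PRMT5, was called only in replicate 2, at chr3:105959241-105959383, with a score of 93 (rank 34, -186 bp). Myef2, a repressor of the myelin basic protein gene, scored 89 in replicate 1 at chr2:125123683-125123812 (rank 143, -87 bp). Cdk12, a kinase of the C-terminal domain of RNA polymerase II, scored 88 at chr11:98202575-98202792 (rank 144). Med4, a Mediator subunit, scored 80 and Sbno1, a homologue of fly strawberry notch, scored 61. The zinc finger gene Zfp935 had a score of 53 at chr13:62466653-62466782 in replicate 2, where it ranked 55th of 55, and Zfp407 and Elobl completed the group with 74 and 72 in replicate 1.

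The 7 genes of membrane traffic and the cytoskeleton scored 69 to 105 in replicate 1 (5 peaks) and 73 and 95 in replicate 2. Wdr44 scored 105 at chrX:23692960-23693142 in replicate 1 (rank 113). Arf3, a small GTPase of the Golgi, was called only in replicate 2, at chr15:98763221-98763350, with a score of 95 (rank 32, -167 bp). The gene name in that row of the list is Pcbp3, but its gene ID, transcript, description and position are those of Arf3, which is the name used here. Ankfy1, which encodes an endosomal effector of RAB5, was also called only in replicate 2, at chr11:72689956-72690085, with a score of 73 (rank 48, 18 bp downstream). Fkbp15, Dynlt1b, a dynein light chain gene, Golph3, a Golgi protein that binds phosphatidylinositol 4-phosphate, and Tmed2, a cargo receptor between the endoplasmic reticulum and the Golgi, had scores of 83, 75, 75 and 69 in replicate 1.

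The 6 genes of signalling, ubiquitin and oxygen sensing scored 67 to 84, all in replicate 1, where the member peaks had a median of 80. They were Mapk14, the p38 alpha kinase (84), Marchf5, a ubiquitin ligase of the outer mitochondrial membrane (80), Arrdc3, an alpha-arrestin (77), Ppp1r11, an inhibitor of protein phosphatase 1 (75), Sharpin, a subunit of the linear ubiquitin chain assembly complex (70), and Hif1an, the asparagine hydroxylase that restrains HIF (67). The 6 genes of metabolism, membranes and protein folding scored 64 to 87, from Cct4, a chaperonin subunit, to Abhd10, a mitochondrial hydrolase. Between them lay Pcyt1a, the rate-limiting enzyme of phosphatidylcholine synthesis (86), the chloride-proton exchanger gene Clcn3 (83), Pigx, which acts in the synthesis of GPI anchors (79), and Mdh2, the mitochondrial malate dehydrogenase (75). The 3 genes of DNA repair and the centromere scored 61 to 78, which is too few peaks to describe a group. Rad50 of the MRN complex had 78, close to that median. Tdp2, which removes topoisomerase II from DNA ends, had 69, and Cenpu, a centromere protein, had 61.

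In replicate 1 the highest score of a member belonged to a noncoding gene, the microRNA gene Mir466d, with 174 at chr2:5379223-5379362 (rank 64, -98 bp). The other noncoding members were C030016D13Rik (86), Mir207 (75) and Ggnbp2os (62). No role is given here for Tmem267, Ssmem1, Wdr27 and 9930021J03Rik. Of these, Tmem267 had the second highest score in replicate 1, 122 at chr13:119488840-119489036 (rank 91, 78 bp downstream of the start used by the annotation). Wdr27 was called only in replicate 3, at chr17:14943070-14943199, with a score of 87 (rank 74, -10 bp), and is the member that is lost without that list.

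Members were also counted in 10 gene lists that bear on Par-4, fat cells and the groups above. The lists were chosen with earlier results of these data known, and Denr, Rbm39 and Marchf5 were among the genes already seen. Of all 21900 protein-coding genes, 43 were members (0.196%), so that a list of this length can hold none without standing apart from other genes. No member was in the lists of the p53 pathway (0 of 28 genes), adipocyte and lipid storage (0 of 27), complement (0 of 25), partners of Par-4 and apoptosis (0 of 21), chromatin regulators (0 of 31) or mitochondrial function (0 of 25). The 0 of the p53 pathway follows from the rule, which leaves out chromosome 10 and with it the promoter peak of Mdm2 in replicate 2 (score 130, rank 16 of 55). The list of RNA splicing and processing held 3 of 56 (Rbm39, Sf3b2 and Srsf11), translation 1 of 34 (Denr), ubiquitin ligases and the proteasome 1 of 37 (Marchf5), and DNA replication and repair 1 of 32 (Rad50). Counting peaks of any class, on any chromosome, 7 genes of the splicing list were named as nearest to a peak, 4 of the ubiquitin list, 1 each of the p53, complement, chromatin, translation and repair lists, and 0 of the adipocyte, Par-4 partner and mitochondrial lists. For scale, 195 genes of any type were named as nearest to a peak, beside 21900 protein-coding genes in all. These counts were not tested. The shares of the splicing list lay above those over all genes. Since Rbm39 was already seen when the lists were chosen, they cannot show whether there is an excess.

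The detailed annotation named a CpG island in 16 peaks of the 3 lists and in 0 of the 50 member peaks. Of the 16 peaks, 10 were among the 19 near peaks of another class described above. That column cannot show an island for the member peaks, because it repeats the promoter class in all 50 rows. CpG content was therefore measured in the RefSeq promoter windows, which were found for 36 of the 47 members. The window is that of the named gene's start nearest to the peak, and it need not lie under the peak. The windows of Larp1, Tmem267, Cdk12, 9930021J03Rik, Golph3, Fkbp15, Marchf5, Pigx and Elobl did not overlap the peak of their gene. The members without a window were Mir466d, Mak16, Ddx6, Rad50, Dynlt1b, Mir207, Zfp407, Sharpin, Tmed2, Tdp2 and Cct4. A window was called CpG-rich with a GC content of at least 50% and an observed over expected CpG ratio of at least 0.6.

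By this measure 33 of 36 member windows were CpG-rich (91.7%, exact interval 77.5 to 98.2%), against 9600 of the 21263 windows of protein-coding genes (45.1%). Without replicate 3 the members' share was 32 of 35 (91.4%). With a GC content of at least 55% and a ratio of at least 0.75, the shares were 77.8% of the member windows and 29.9% of the coding windows. The median GC content was 65.2% in member windows and 56.3% in coding windows, and the median observed over expected ratio was 0.877 and 0.567. Larp1 had the window with the highest GC content, at 85.3%, and Tmem267 the highest ratio, at 1.16. Neither of these windows overlapped the peak of its gene. The members whose window was not CpG-rich were Elobl, with a ratio of 0 and 43.7% GC, Zfp935, with 0.446 and 49.3%, and Ppp1r11, with 0.526 and 51.3%. Elobl had the member peak farthest from its start and Zfp935 the lowest rank in the list of replicate 2. Whether reads from CpG-rich DNA are over-represented in these libraries was not tested, since no input library was used here.

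**Figure D3:**
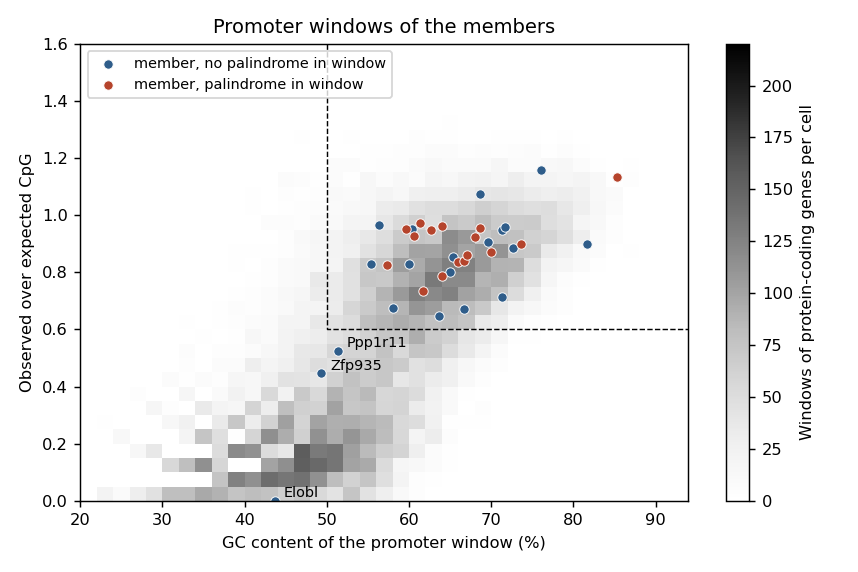
Observed over expected CpG against GC content (%) of promoter windows, with the 36 member windows as points, coloured by whether the window holds the palindrome, over the number of coding-gene windows per cell in grey. Dashed lines bound the CpG-rich range, which holds 33 of the 36 member windows and leaves out Elobl, Zfp935 and Ppp1r11.

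Among the promoter elements searched in the 36 member windows, most were about as frequent as in other CpG-rich promoters. Searches covered 10 motifs on both strands. The Sp1 GC box, GGGCGG, was found in 27 member windows (75.0%), against 76.8% of the CpG-rich coding windows and 46.2% of all coding windows. The ETS core, CCGGAA, was found in 13 (36.1%, against 31.3% of CpG-rich and 18.7% of all coding windows), and CCAAT in 12 (33.3%, against 36.1% and 38.2%). The E-box CACGTG was found in 4 (11.1%, against 11.6% and 7.84%) and the cyclic AMP response element TGACGTCA in 3, those of Clcn3, Golph3 and Mdh2 (8.33%, exact interval 1.75 to 22.5%, against 3.74% and 2.23%). The EGR1 form GCGTGGGCG was found once (Wdr44), and the NRF1 motif, a palindrome searched by its consensus, once (Sbno1). The WT1 form GCGGGGGCG, the YY1 form AAGATGGCG and the TATA box TATAAA were found in 0 of 36 windows, against 7.57%, 3.47% and 4.52% of the CpG-rich coding windows. For a share of 0 of 36 the exact interval runs up to 9.74%, and the letters searched are only 1 form of each element.

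A further element was noticed by eye in the sequences under the peaks, after those motifs had been searched. It is the palindrome TCGCGA, and its longer form CTCGCGAG. An element with this core is known from other work to be bound by the protein BANP at CpG-rich promoters, and the zinc finger protein Kaiso has been linked to it as well. Of the 47 members, 30 had promoter window sequence under at least part of their peak, and 13 of these held TCGCGA there (43.3%, exact interval 25.5 to 62.6%): Wdr44, Denr, Rbm39, Cdk12, Ssmem1, Mapk14, Ireb2, Mdh2, Sbno1, Arf3, Wdr77, Ankfy1 and Wdr27. The longer form was found under the peaks of 11 of them, all but Denr and Cdk12. In 7 members a single peak held at least 2 copies, among them Denr, Rbm39, Mapk14 and Wdr77, and Mapk14 held 3, the last of them past the stretch printed above. The element was picked after 5 letter forms had been viewed in these same members, so its share among them is a description and was not tested.

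For comparison with other promoters, the whole windows were searched in the same way. TCGCGA lay in 16 of the 36 member windows (44.4%, exact interval 27.9 to 61.9%), against 629 of the 9600 CpG-rich coding windows (6.55%) and 706 of all 21263 coding windows (3.32%). Without replicate 3 it lay in 15 of 35 member windows. The windows with a copy are not the same set as the peaks with one. In Larp1, Ggnbp2os, Myef2 and Rc3h2 the window held a copy but none was found under the peak, which for Larp1 had no sequence. In Cdk12 the peak held the palindrome and the window did not. The longer form lay in 14 member windows (38.9%), against 2.52% of CpG-rich and 1.24% of all coding windows. The inner letters alone, CGCG, did not set the members apart, with 86.1% of member windows and 89.9% of CpG-rich coding windows. Stretches of 130 bp, the width of the narrowest peaks, held the palindrome in 3.07% of cases within CpG-rich coding windows and in 1.53% within all coding windows. The sequence under the member peaks differed in length, from 17 to 224 bp with a median of 130 bp. Denr and Rbm39 were also counted over several peaks, so these shares are only a rough guide. Window sequence lay under few of the peaks outside the members. Of these, the near-start exon peak of Cul5 in replicate 1 held a copy. Those of Mdm2, Slc35e3, Rn4.5s and Hint3 held no copy in the part with sequence. A match is a run of letters and not a bound site.

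The position of each palindrome under its peak was also recorded. Of 27 copies counted over all member peaks, 22 lay within 50 bp of the peak centre, the median distance was 30.5 bp and the largest was 80 bp. Without replicate 3 there were 24 copies, with 20 of them within 50 bp. Copies are counted in each list, so those of Denr and Rbm39 enter more than once, and the distances are bounded by the width of the peaks, many of which end 65 bp from their centre, so they do not show a preference for the middle. In the Wdr44 peak the single copy lay 7.5 bp from the centre, in that of Wdr27 15 bp and in that of Ssmem1 17 bp. In the Denr promoter both copies lay under the peak of every list.

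**Figure D4:**
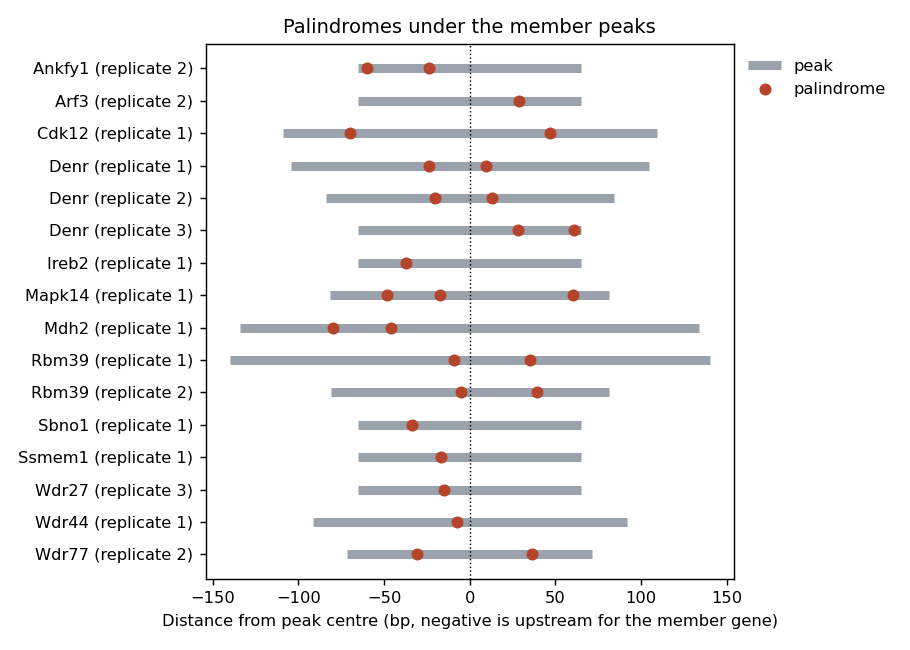
Position of each palindrome (points) relative to the peak centre (bp, negative is upstream for the member gene) in the 16 member peaks that hold one, with grey bars for the width of the peak; the replicate stands beside the gene. Of the 27 copies, 22 lie within 50 bp of the centre and none lies farther than 80 bp.

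By list, the palindrome lay under 9 of the 24 member peaks with sequence in replicate 1, 5 of 7 in replicate 2 and both in replicate 3. Of the genes called only in replicate 2, Arf3, Wdr77 and Ankfy1 held it, while Rc3h2 held it in its window but not in the part under its peak, and Zfp935 had only 20 bp of sequence under the peak. In replicate 1 the member peaks with a palindrome scored 61 to 105 with a median of 87 (9 peaks), and those with sequence but without a palindrome scored 61 to 116 with a median of 80 (15 peaks). The ranges overlapped. Among members whose whole peak was covered by sequence, 8 of 15 held the palindrome (53.3%, exact interval 26.6 to 78.7%). Without replicate 3 the members with a palindrome under the peak numbered 12, and without replicate 1 they numbered 6.

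Some of the members had the start of another gene near the peak. For 16 of the 47 (34.0%, exact interval 20.9 to 49.3%), another gene started within 1000 bp of the peak or the transcript named by the annotation was that of another gene. Without replicate 1 this held for 2 members, and without replicate 3 for 15. The share was not counted over all promoters by this definition, so no comparison is given for it. The transcript was that of another gene in 10 pairs: Tmem267 with 3110070M22Rik, Srsf11 with Lrrc40, Ssmem1 with Tmem209, C030016D13Rik with Pum3, Fkbp15 with Slc31a1, Marchf5 with Cpeb3, Pigx with Cep19, Sharpin with Maf1, Tdp2 with Acot13 and Wdr27 with 1600012H06Rik. The other 6 were Myef2, Cdk12, Mir207, Mdh2, Ggnbp2os and Wdr77. Among the 36 members with a window, 13 had the start of another gene on the opposite strand within 1000 bp of their own (36.1%, exact interval 20.8 to 53.8%), against 26.0% of the CpG-rich coding windows and 15.6% of all coding windows. Without replicate 3 these were 12 of 35. The share in CpG-rich windows lay within the members' interval.

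In the pairs of Cdk12 and Wdr77 the peak lay nearer to the start of the neighbour. Where the starts of both genes were known for the other pairs, the member's own start was the nearer. The Cdk12 peak was centred 53 bp from the start of the noncoding gene Gm38963 and 622 bp from that of Cdk12. The Wdr77 peak was centred 49 bp from the start of Atp5pb, a subunit of mitochondrial ATP synthase, and 186 bp from that of Wdr77. The Mir207 peak lay 8 and 16 bp from starts of Dnaja1, a gene for an HSP40 co-chaperone, and the start of the microRNA gene falls there too. In Wdr27 and 1600012H06Rik the starts lay 10 and 50 bp from the peak centre, on opposite sides, and in Ssmem1 and Tmem209 they lay 20 and 46 bp from it, again on opposite sides. The gene that a peak of this kind belongs to cannot be told from the lists. Of the 13 members with a palindrome under the peak, 5 were among those with such a neighbour: Cdk12, Ssmem1, Mdh2, Wdr77 and Wdr27.

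**Figure D5:**
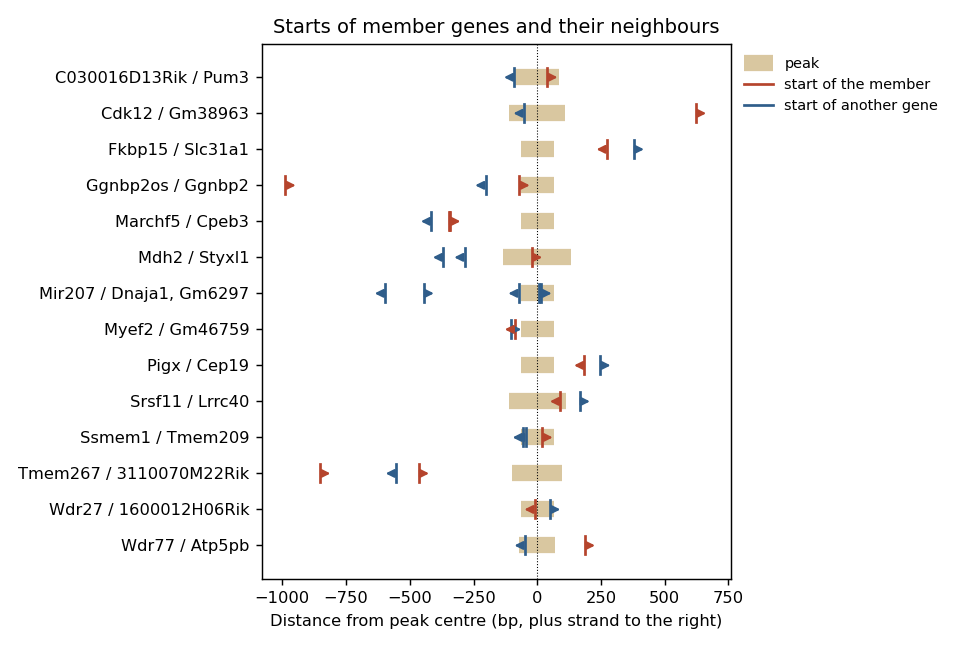
Starts of member genes and of their neighbours relative to the peak centre (bp, plus strand to the right). Shown are 14 of the 16 members with a neighbouring start or another gene's transcript, those with a RefSeq window for either gene. Arrowheads give the direction of transcription and the shaded bar is the peak. Starts of RefSeq windows can differ from the start used by the annotation, as in Tmem267, and the own start of Mir207 is not drawn.

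The members lay on 16 chromosomes. Chromosome 11 held 7 of the 47 (14.9%), against 7.35% of protein-coding genes, and chromosome 19 held 5 (10.6%), against 3.22%. These are named because they held the most members. The shares of protein-coding genes include chromosome 10, which the rule leaves out. Counts this small were not tested and cannot show whether members gather on a chromosome. A few members were close to each other: Sbno1 and Tmed2 lay 114 kb apart on chromosome 5, with Denr 519 kb from Sbno1, and Pigx and Pcyt1a lay 331 kb apart on chromosome 16. Apart from these runs of neighbours, no members lay within 1000 kb of each other.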

How the data were processed

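Par-4 ChIP-Seq libraries of untreated 3T3-L1 cells were sequenced by the authors, mapped with Bowtie2, and peaks were called per sample with MACS2 and annotated with HOMER on mm10, per the file headers, the methods and the submitters' processing notes. The sources used here give neither tool versions nor the calling threshold, and name no control library. The peak score was deposited by the authors for each peak, and it was used only to rank peaks within a list. The lists carry no read counts, so depth and its precision are unknown.

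Peaks were used as deposited. The members and the gene lists were chosen with earlier results of these data known. A gene name turned into a date was restored to Marchf5 by its Entrez ID, and 1 row named Pcbp3 was taken as Arf3 from its other identifiers, which goes beyond the rule but leaves the number of members as it was. Shares are given with exact (Clopper-Pearson) 95% binomial intervals, and no test was made because there is 1 condition and the rule used the peak calls. Promoter windows, gene starts and gene types came from RefSeq tables of GRCm38.p6. All members may be named. Positions, ranks and distances are given for members called in at least 2 lists, all members of the lists of replicates 2 and 3, and the 10 highest of replicate 1. Alternatives covered the promoter definition, the score, the overlap rule, the chromosomes left out, the CpG thresholds and each replicate left out, and those for the palindrome were added after the data were seen. The computations were tested on simulated data. Calculations ran in Python 3.11.15 with scipy 1.17.1, pandas 2.3.3 and numpy 2.4.6, and figures were drawn with matplotlib 3.10.9.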

Additional observations from a re-analysis of the deposited data

How the results depend on the processing

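Of 65 alternatives to the values reported, 52 kept the value within 1.5 times a count or within its spread, and 13 moved it. With peaks at or above their list's median score, the member genes numbered 7 in place of 47, those called in at least 2 lists 0 in place of 2, and the member peaks 5, 2 and 0 in replicates 1, 2 and 3. Leaving out 1 replicate gave 8 to 46 member genes, 1 or 2 genes called in at least 2 lists, 2 to 15 members with a neighbouring start and 6 to 12 members with the palindrome, each lowest without replicate 1 (the second also without replicate 2). With any class within 1000 bp of a TSS, replicate 3 held 4 peaks in place of 2. Outside repeats and unplaced DNA, the median score percentile of the replicate 3 member peaks was 44.8% in place of 31.7%. Under the same setting that of replicate 2 was 57.4% in place of 39.1%, within 1 SD of the member peaks, and their median score then lay above that of the other peaks (93 against 87). The palindrome lay in 8 members when only wholly covered peaks were used. The cause of these shifts was not tested beyond the smaller number of peaks that a stricter score or a missing list leaves. The share with a CpG island label and the removal of repeats by the detailed annotation could not change, since that column repeats the promoter class, and the shorter distance for neighbours keeps the genes named by transcript. The added alternatives, for the palindrome and for leaving out replicates in the width, distance, CpG and neighbour results, were chosen after seeing the data. No paired analysis was possible because there is 1 group and no test. The small lists, the unknown depth and the lack of an input comparison here limit every value.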
